A study of Homo sapiens with 5 samples.

Results

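NFE2, NFE2L1, BACH1 and the small MAF proteins MAFF, MAFG and MAFK were chosen by name from the authors' comparison of ERF knockout with wild-type HUDEP-2 cells. All 6 were among the 11976 genes measured. HUDEP-2 cells are immortalised erythroid progenitors derived from umbilical cord blood, and their hemoglobin is mainly of the adult type. Total RNA of 3 libraries with the genotype label ERF knockout and 2 labelled wild type was sequenced, and the wild-type titles carry the unexplained letters SCR. ERF is an ETS-family transcriptional repressor. No treatment, time point, guide or clone is named in the labels, and the abbreviation Pre in the table's name is unexplained, so the culture stage is not known.

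CNC factors (NFE2, NFE2L1 and their relative NFE2L2) and BACH1 are basic leucine zipper proteins that bind DNA as heterodimers with a small MAF protein. NFE2 with a small MAF forms NF-E2, the activator that binds the hypersensitive sites of the β-globin locus control region. BACH1 occupies the same kind of site as a repressor and leaves it when heme binds BACH1. Small MAFs carry no activation domain of their own, so their homodimers act as repressors, and the partner sets what a heterodimer does.

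The comparison has no direction in its header. The sign was set so that the γ-globin gene HBG2 is positive, and the 2 sides are called the HBG2-high and the HBG2-low group. On this sign the log2 fold change of HBG2 was 1.88 (standard error, SE, 0.22), which is not a result. Every log2 fold change below is the deposited value multiplied by -1. HBG2 has a near-identical copy, HBG1, so its own value is uncertain. If γ-globin is higher in the knockout in these cells, as the series title has it, the HBG2-high group is the libraries labelled knockout. ERF RNA was then higher in the libraries labelled knockout, by 0.89 (SE 0.07) on the log2 scale, which goes against a loss of its RNA. With the other reading of the sign, HBG2 and ERF are both lower in the libraries labelled knockout. Which members moved together and which moved apart does not depend on the reading.

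The authors' deposited table holds no value for any single library, so each gene is given by its fold change, its mean over all libraries in log2 CPM (read counts scaled to library size) and its test. Standard errors and 95% intervals were derived from the deposited fold change and F statistic. Depth per library is unknown. Separate cultures are not stated, so the p-values rest on the spread between these libraries, which may be technical. The test implies 10.3 degrees of freedom, more than 5 libraries can give, so each gene's error also draws on other genes. An adjusted p below 0.05 was reached by 6092 of 11976 genes, 50.9%, in the authors' deposited table, with 24.9% higher and 25.9% lower in the HBG2-high group. All 11 erythroid markers looked for were measured, from 6.90 log2 CPM for the anion exchanger gene SLC4A1 to 12.48 for HBB per the authors' deposited table. Few genes marking other blood cells were present: 2 of 10 for megakaryocytes (ITGA2B at 7.26 and TUBB1 at 2.51 log2 CPM), 1 of 7 for granulocytes and monocytes (LYZ at 0.48) and 0 of 5 for lymphocytes.

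Promoters were searched for the element these proteins read and for its shorter core. NF-E2 and BACH1 heterodimers bind an extended site that contains GCTGAGTCA, whose right part, TGAGTCA, is also bound by AP-1. That shorter core, searched as TGANTCA (which reads the same on both strands), was present in 7.71% of the 35116 RefSeq promoters (GRCh38.p14, 250 bases before to 50 after a start), against 0.561% for GCTGAGTCA on either strand, which contains the core. RefSeq promoters were at hand for 6 of the 10 measured genes of a list of NFE2 targets, and 4 of the 6 held TGANTCA. In HBD, ALAS2 and RAB27B the match reads TGAGTCA, whereas in LIMS1 it reads TGATTCA, which differs in the middle base. The 4 of 6 counts genes with any listed promoter, whereas 7.71% counts single promoters. The matches are printed 5′ to 3′ on the gene's strand with TGANTCA in capitals, because they show what the search found beside genes given below.
HBD, δ-globin, chr11:5234640-5234680, minus strand: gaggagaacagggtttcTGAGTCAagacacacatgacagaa
ALAS2, the erythroid heme synthesis enzyme, chrX:55031001-55031041, minus strand: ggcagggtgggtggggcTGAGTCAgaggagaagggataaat
RAB27B, a granule transport GTPase, chr18:54828323-54828363, plus strand: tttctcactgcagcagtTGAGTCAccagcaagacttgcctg
LIMS1, a focal adhesion adaptor, chr2:108570630-108570670, plus strand: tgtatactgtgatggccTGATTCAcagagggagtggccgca
The match began 180 bases before the start in HBD, 47 in ALAS2, 137 in RAB27B and 58 in LIMS1. Of the 4 windows, that of ALAS2 also holds GCTGAGTCA, and a match is a string of letters, not a measured binding site.

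The small MAF genes parted in direction. MAFF and MAFK were higher in the HBG2-high group and MAFG was lower, while of their partners NFE2L1 was lower and neither NFE2 nor BACH1 passed the test. In all, 2 of the 6 members were higher, 2 lower and 2 not called, or 66.7% called, beside 50.9% of all genes. At least 1.2-fold and called were 2 of the 6, beside 35.7% of all genes. With 6 genes neither share says anything particular about the family.

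**Figure D1:**
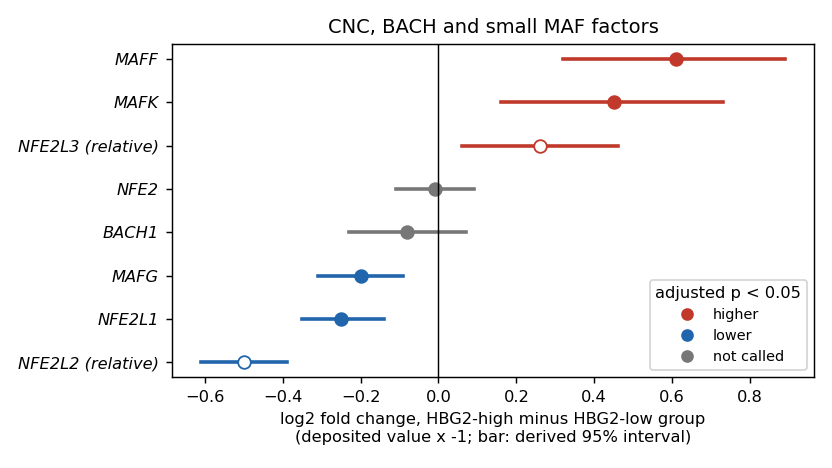
Log2 fold change (x axis, HBG2-high minus HBG2-low group) of the 6 members (filled) and of their relatives NFE2L2 and NFE2L3 (open), with bars for the derived 95% interval and colours for the call at an adjusted p below 0.05. MAFF (0.61) and MAFK (0.45) lie right of 0, MAFG (-0.20) and NFE2L1 (-0.25) left of it, and the bars of NFE2 and BACH1 span 0.

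MAFF (ENSG00000185022, chromosome 22), a small MAF whose gene is induced by growth factor and stress signals in many cells, was the highest member. The authors' deposited table gave it a log2 fold change of 0.61 (SE 0.13, 1.52-fold, 95% interval 1.25 to 1.86, adjusted p = 0.00306). Its mean of 1.99 log2 CPM, a scale not corrected for length, lay above that of 17.3% of genes. From mean and fold change, with 3 libraries in the HBG2-high group, the levels come to about 4.6 and 3.02 CPM, or 4.99 and 3.28 CPM if that group holds 2 libraries. Among the 969 genes within 0.5 log2 CPM of MAFF, 19.3% had a larger absolute change and 45% were called.

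MAFK (ENSG00000198517, chromosome 7), the small MAF first isolated as the partner of NFE2 in erythroid cells, was also higher. The authors' deposited table gave it a log2 fold change of 0.45 (SE 0.13, 1.36-fold, 95% interval 1.12 to 1.66, adjusted p = 0.0140). Its mean was 2.09 log2 CPM, with derived levels of about 4.76 CPM in the HBG2-high and 3.49 CPM in the HBG2-low group. MAFK is the weakest of the 4 calls, since it misses a threshold of 0.01. In GENCODE 29, 18.1% of its exon bases also belong to exons of TMEM184A on the opposite strand; the sources used here do not give the strand setting of the counting, so reads there could have gone to neither gene.

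MAFG (ENSG00000197063, chromosome 17), the small MAF most closely tied to NF-E2 function in megakaryocytes in mouse work, went the other way. The authors' deposited table gave it a log2 fold change of -0.20 (SE 0.05, 95% interval -0.31 to -0.09, 1.15-fold lower, adjusted p = 0.00622). At 5.52 log2 CPM it was measured more precisely than MAFF and MAFK, and its derived levels were about 43.3 CPM in the HBG2-high and 49.9 CPM in the HBG2-low group. A change of this size is ordinary here: 44.5% of the 2227 genes of like expression had a larger one. MAFG-AS1, the noncoding gene beside it, stood at -0.11 (SE 0.09, adjusted p = 0.357) per the authors' deposited table.

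The gap between the small MAFs was larger than the errors. MAFF exceeded MAFG by 0.81 in log2 fold change (95% interval 0.50 to 1.12), and MAFK exceeded it by 0.65 (0.35 to 0.96), with the errors of different genes taken as independent. MAFF and MAFK differed from each other by 0.16 with an interval of -0.25 to 0.56, which leaves room for a sizeable difference either way. These intervals are descriptions of single pairs and are not adjusted for the 15 pairs that 6 genes form.

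Per unit of transcript length, MAFG made up most of the small MAF RNA. On the scale of CPM per kb of exon (GENCODE 29 exon bases, GRCh38), the mean level was 8.80 for MAFG, 0.953 for MAFK and 0.706 for MAFF, so that MAFG held 84.1% of the sum. Its derived share was 81.5% in the HBG2-high and 87.9% in the HBG2-low group, the share of MAFF 8.04% and 4.94%, and that of MAFK 10.5% and 7.19%. The sum itself was about 10.2 and 10.9 CPM per kb, a log2 ratio of -0.10. The gains of the scarce MAFF and MAFK, 0.281 and 0.285 CPM per kb, together were smaller than the 1.26 CPM per kb by which MAFG was lower. With the longest basic transcript as the length, MAFG held 76.2% and the ratio was -0.04, so the order within the pool depends on the length used for MAFF, whose mean then comes to 1.59 against 1.26 CPM per kb for MAFK. No error can be attached to these sums, because they need values per library.

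**Figure D2:**
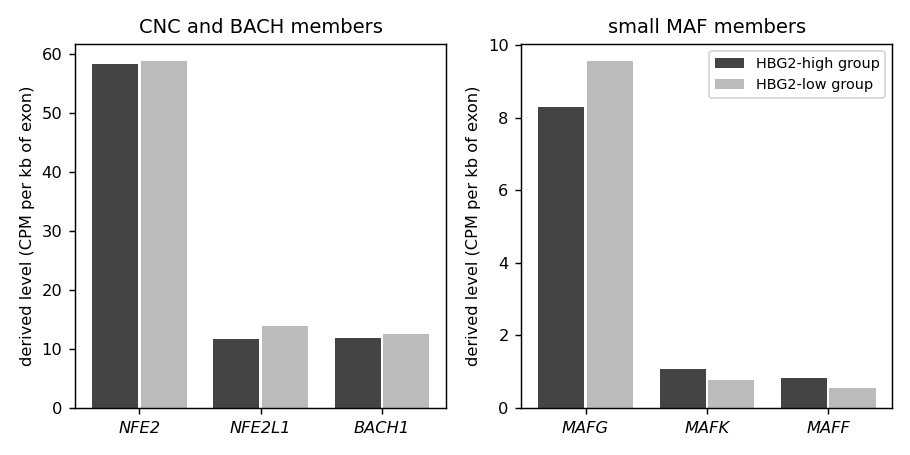
Derived levels (y axis, CPM per kb of exon; the panels have different scales) of the CNC and BACH members (left) and the small MAF members (right) in the HBG2-high (dark) and HBG2-low (light) group, computed from deposited means and fold changes with 3 and 2 libraries; no error bars can be drawn. NFE2, at 58.3 and 58.7, and MAFG, at 8.3 and 9.56, are the tallest bars of their panels.

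NFE2 (ENSG00000123405, chromosome 12), the blood-cell-restricted subunit that gives NF-E2 its activating function, did not differ beyond error. The authors' deposited table gave it a log2 fold change of -0.01 (SE 0.04, adjusted p = 0.846). The 95% interval ran from -0.11 to 0.09, that is from 0.926-fold to 1.06-fold, so larger changes in its RNA lie outside the interval. Of all genes, 97.0% had a larger absolute fold change. Its mean of 7.17 log2 CPM lay above that of 91.2% of genes, with derived levels of about 144 and 145 CPM. Per kb of exon its mean of 58.5 CPM was the highest of the members and made up 70.2% of the summed level of NFE2, NFE2L1 and BACH1.

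NFE2L1 (ENSG00000082641, chromosome 17), a broadly expressed CNC factor anchored in the endoplasmic reticulum that induces proteasome genes after it is cleaved, was the lowest member. The authors' deposited table gave it a log2 fold change of -0.25 (SE 0.05, 95% interval -0.35 to -0.14, 1.19-fold lower, adjusted p = 0.0015). Its mean was 6.19 log2 CPM, and the derived levels were about 68.1 CPM in the HBG2-high and 80.9 CPM in the HBG2-low group. Among 2017 genes of like expression, 30.9% had a larger absolute change. NFE2L1 lay below NFE2 by 0.24 in log2 fold change (95% interval 0.09 to 0.38).

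BACH1 (ENSG00000156273, chromosome 21), the heme-sensing repressor, was not called. The authors' deposited table gave it a log2 fold change of -0.08 (SE 0.07, 95% interval -0.23 to 0.07, adjusted p = 0.324). Its mean was 6.56 log2 CPM, and its derived levels were about 92.1 and 97.6 CPM. The standard error exceeded the median of 0.05 for genes of like expression, and a change as large as that of MAFG lies within the interval. BACH1 could not be set apart from NFE2 (difference 0.07, interval -0.11 to 0.25) or from MAFG (0.12, -0.07 to 0.31).

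Ordered by log2 fold change the members ran MAFF, MAFK, NFE2, BACH1, MAFG and NFE2L1. Of the 5 steps between neighbours in this order, only that from MAFK to NFE2 (0.46, interval 0.16 to 0.76) had an interval above 0. The order therefore holds as a scarce pair above the other 4, with NFE2 also above MAFG by 0.19 (0.04 to 0.34) and above NFE2L1.

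**Figure D3:**
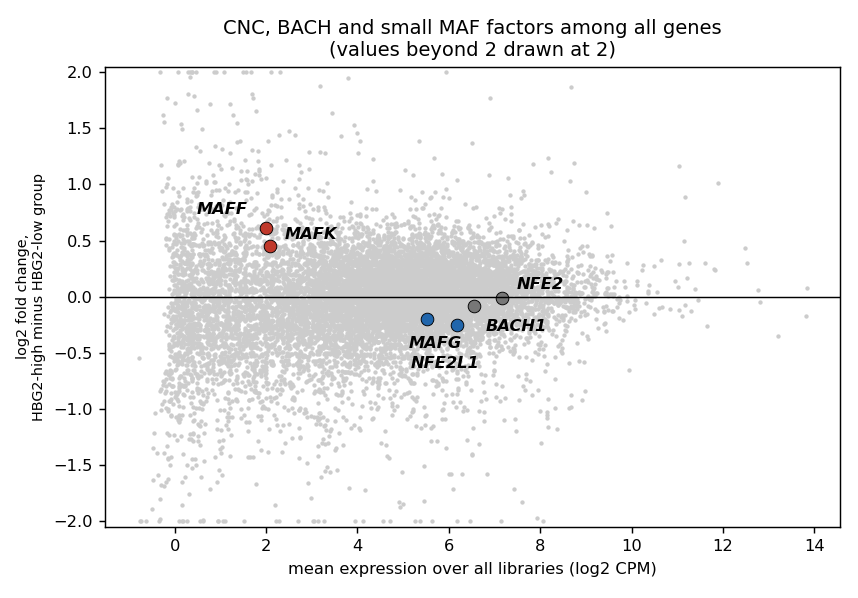
Mean expression over all libraries (x axis, log2 CPM) against log2 fold change (y axis, HBG2-high minus HBG2-low group) for all 11976 genes in grey and the 6 members in colour (red higher, blue lower, dark grey not called). MAFF and MAFK sit near 2 log2 CPM, where grey points spread widely, and the other 4 members between 5.52 and 7.17 log2 CPM, close to 0.

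Of 6 further CNC, BACH and MAF genes, NFE2L2 and NFE2L3 were measured. BACH2, MAF, MAFA and NRL were looked for, but no single row was matched to them by name. NFE2L2, which encodes the oxidative stress factor NRF2, was lower by more than any member, at -0.50 (SE 0.05, 1.42-fold lower, adjusted p = 2.35e-05) per the authors' deposited table. Only 6.77% of the 1757 genes of like expression had a larger change. NFE2L3 stood at 0.26 (SE 0.09, adjusted p = 0.0333) per the authors' deposited table. It was not called with a minimum of 1.2-fold, nor when fold changes were centred on the median of genes of at least 5 log2 CPM (0.22, adjusted p = 0.0578). The broadly expressed NFE2L1 and NFE2L2 were both lower, and NFE2 was not called. Per kb of exon, the summed level of NFE2, NFE2L1, BACH1 and NFE2L2 was about 94.5 CPM in the HBG2-high and 103 CPM in the HBG2-low group, and NFE2 was 61.6% and 56.9% of it.

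Promoters of the members were at hand for 4 of the 6: NFE2L1, MAFG, BACH1 and MAFF. Those of MAFF and MAFG are shown because the genes moved apart, and that of BACH1 because it alone holds TGANTCA. The capitals mark TGANTCA, the cyclic AMP response element TGACGTCA, the E-box CACGTG and the ETS core CCGGAA (either strand), and the printed stretch is the 250 bases before a start. The ETS core is the kind of element that ETS factors such as ERF bind. TGACGTCA and CACGTG were added to the search after the sequences had been seen.
MAFF, chr22:38201744-38201993, plus strand: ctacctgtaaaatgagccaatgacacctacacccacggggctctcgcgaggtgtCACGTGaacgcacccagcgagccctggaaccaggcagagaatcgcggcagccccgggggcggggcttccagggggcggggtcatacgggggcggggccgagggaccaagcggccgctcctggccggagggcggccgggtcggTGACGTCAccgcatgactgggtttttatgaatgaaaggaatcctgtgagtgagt
MAFG, chr17:81927736-81927985, minus strand: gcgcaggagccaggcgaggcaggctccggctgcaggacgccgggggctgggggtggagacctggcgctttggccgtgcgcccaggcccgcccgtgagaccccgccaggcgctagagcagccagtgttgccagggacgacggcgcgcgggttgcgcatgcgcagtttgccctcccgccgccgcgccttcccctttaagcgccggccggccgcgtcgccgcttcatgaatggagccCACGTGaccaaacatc
BACH1, chr21:29298672-29298921, plus strand: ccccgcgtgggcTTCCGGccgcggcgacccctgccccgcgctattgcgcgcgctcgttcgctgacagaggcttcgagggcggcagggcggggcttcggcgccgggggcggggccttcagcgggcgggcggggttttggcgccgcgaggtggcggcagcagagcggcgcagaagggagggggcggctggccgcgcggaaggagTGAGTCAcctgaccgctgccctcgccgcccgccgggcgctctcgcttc
MAFF held TGACGTCA from 54 bases before this start, an element found in 1.85% of promoters, and CACGTG, found in 7.26%, as did MAFG. BACH1 held TGAGTCA from 48 bases before its start and an ETS core, which 17.2% of promoters hold. In MAFF the ETS core lies just after the start, outside the printed stretch. The longer ETS string CCGGAAGT, in 4.14% of promoters, and GCTGAGTCA were in none of the 8 listed promoters of the 4 genes. TGACNNNGC, the core of the antioxidant response element (13.3% of promoters), and the GATA string AGATAA (10.3%) were also searched and are not capitalised. MAFF held GCGGGGTCA, a match to TGACNNNGC on the other strand, at position -122 from the start shown. AGATAA was matched on the other strand of a further listed promoter of BACH1, not printed here. Which of a gene's starts these cells use was not measured.

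Other proteins that act with NF-E2 at the locus control region were mixed. Of 9 factors, 3 were higher, 2 lower and 4 not called, 55.6% called beside 50.9% of all genes, with a median of 0.06. GATA2 stood at 0.93, the E protein TCF3 at 0.30 and KLF1 at 0.17, whereas LMO2, the bridging protein of the GATA1-TAL1 complex, stood at -0.37 and LYL1 at -0.15 (adjusted p = 0.0489) per the authors' deposited table. GATA1 was not called, at -0.12 (SE 0.06, adjusted p = 0.103) per the authors' deposited table. Of 9 cofactors of NFE2 and BACH1 complexes, 4 were higher, 2 lower and 3 not called, 66.7% called beside 50.9%, with the same median. The acetyltransferases EP300 (0.24) and CREBBP (0.22) and the H3K4 methyltransferase subunits WDR5 (0.24) and RBBP5 (0.15) were higher per the authors' deposited table. ASH2L, a further subunit of that methyltransferase, was lower at -0.36 (SE 0.05), and TAF9 was lower at -0.19 per the authors' deposited table.

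Genes that set the stability of these proteins were called about as often as genes at large. Of 18, 7 were higher, 2 lower and 9 not called, 50% beside 50.9%, with a median of -0.01. CUL1 and the segregase VCP (each 0.46) and CUL3 (0.41), the scaffold on which KEAP1 marks NRF2 for degradation, were the highest per the authors' deposited table. GSK3B (0.19), the nuclear exporter XPO1 (0.21) and SYVN1 (0.22) were the smallest of the higher ones per the authors' deposited table. The lower ones were BTRC (-0.30), an F-box protein that targets phosphorylated NRF2, and RBCK1 (-0.40), a ubiquitin ligase linked to the breakdown of BACH1 after heme binding, both per the authors' deposited table. KEAP1 stood at 0.12 (SE 0.05) and was not called (adjusted p = 0.0596) per the authors' deposited table.

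AP-1 factors, which share the core with NF-E2, were all called: of 8 measured, 7 were higher and ATF3 was lower (-3.17), beside 50.9% of all genes called and 24.9% higher. They had a median absolute change of 1.36 beside 0.23 for the 6 members and 0.21 for all genes. FOSB (2.22), FOS (1.95) and JUN (1.44) were the highest, and JUND (0.39), FOSL2 (0.70) and JUNB (0.93) the least changed of those higher per the authors' deposited table.

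Genes listed as NFE2 targets were mostly higher, and NFE2 RNA itself was not called. Of 10 measured, 8 were higher, including HBG2, which set the sign, 1 lower and 1 not called, 90% called beside 50.9% of all genes, of which 24.9% were higher. The median was 0.81 beside 0.00 for all genes. HBG2, positive by construction, also enters this median and the share called. RAB27B (2.12, at a low 0.90 log2 CPM), HBG2 and HBD (1.37) were the highest, and ALAS2 (0.22), HBB (0.43) and HBA1 (0.75) the least changed of those higher per the authors' deposited table. TUBB1, the platelet β-tubulin, stood at 0.87 (SE 0.10) per the authors' deposited table. FECH, which puts iron into heme, was lower at -0.31 (SE 0.06) per the authors' deposited table. LIMS1 had a value of -0.15 and was not called per the authors' deposited table. HBA1 and HBA2 share nearly all their sequence, so the value of each is uncertain. These genes are also erythroid or platelet genes at large. Of the 11 erythroid markers 9 were higher and 0 lower, 81.8% called beside the same 50.9%. SLC4A1 (1.77), HBA2 (1.06) and TFRC (1.01) were highest and EPB42 and KLF1 (each 0.17) lowest of those higher per the authors' deposited table. HBB, HBA1, HBA2 and ALAS2 are in both lists, so their values enter both counts. TUBB1 is likewise both a listed NFE2 target and a megakaryocyte marker. Of the 10 megakaryocyte markers only TUBB1 and ITGA2B were measured, and ITGA2B stood at -0.07 and was not called per the authors' deposited table. The part of these markers in the result was not tested.

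Genes repressed by BACH1 or induced by NRF2 showed no common direction. Of 13 measured, 5 were higher, 2 lower and 6 not called, 53.8% beside 50.9% of all genes, with a median of 0.04. HMOX1, heme oxygenase and the best-known BACH1 target, stood at 0.04 (SE 0.10, adjusted p = 0.748) at 2.39 log2 CPM per the authors' deposited table. The autophagy receptor SQSTM1 (0.44), NQO1 (0.39), FTL (0.27), TXN (0.24) and TXNRD1 (0.19) were higher per the authors' deposited table. FTL has processed pseudogene copies, so its value is uncertain. SLC7A11, the cystine transporter, was 5.51-fold lower at -2.46 (SE 0.10), and the heme transporter SLC48A1 was lower at -0.63 per the authors' deposited table. SLC7A11 is also a known target of the stress factor ATF4.

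Proteasome genes, which NFE2L1 induces when proteasome activity is short, were higher or not called while NFE2L1 RNA was lower. Of 31 subunit genes, 18 were higher, 0 lower and 13 not called, so that 58.1% were called, all of them higher. Over all genes 50.9% were called, 24.9% higher and 25.9% lower. The median of the 31 was 0.18. At an unadjusted p below 0.05, which 57.1% of all genes passed, again 0 were lower. The highest were PSMD1 (0.52, SE 0.05), PSMB2 (0.45) and PSMD11 (0.41), and the smallest called changes were those of PSMB1 (0.12), PSMC5 (0.14) and PSMA4 (0.18) per the authors' deposited table. The median of 0.18 lies below the median absolute change of 0.21 over all genes, scarce ones included. Most of the 31 lie within 0.5 log2 CPM of NFE2L1, BACH1 or NFE2. Among all genes that near to each of these, the median absolute change was 0.16, slightly below 0.18.

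**Figure D4:**
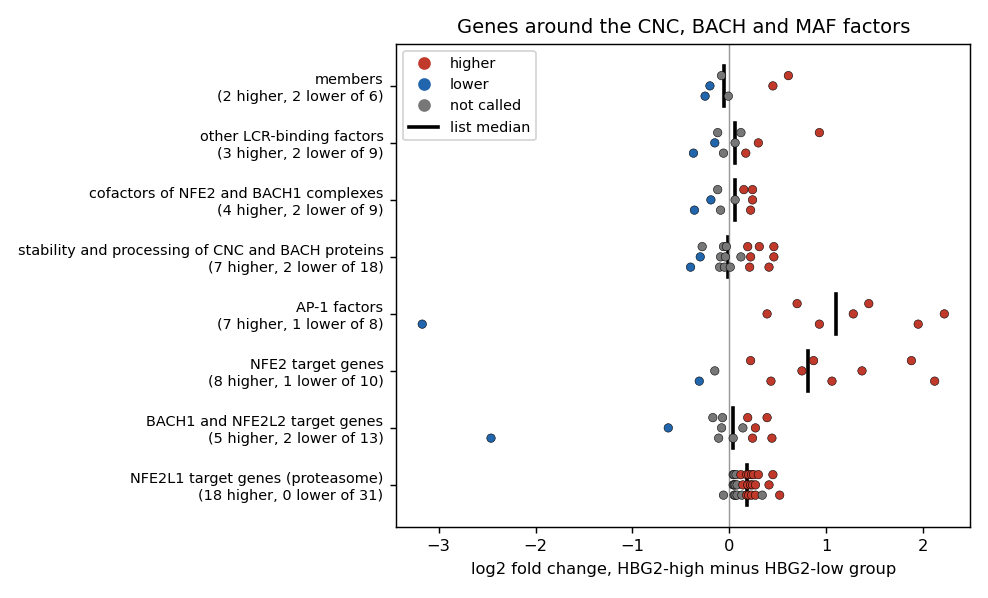
Log2 fold change (x axis, HBG2-high minus HBG2-low group) of each measured gene of 8 lists (rows), coloured by its call, with a black bar at each list's median. The medians of the members and of the lists of cofactors, stability genes and other factors of the locus control region lie near 0, the AP-1 list spreads from -3.17 to 2.22, and the proteasome genes lie in a narrow band mostly right of 0.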

How the data were processed

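Only the authors' deposited table of their comparison was used. Per the file headers it lists the log2 fold change, the mean log2 CPM, the F score of a quasi-likelihood test and both the raw and the adjusted p-value of each gene. Build hg19/GRCh37 and the tools edgeR 2.6.12, TopHat2 2.0.4, HTSeq, Cuffdiff and SAMtools are listed by the authors, per the submitters' processing notes, without roles. The sources used here do not give normalization, filter or strand setting. There are 0 columns of per-sample values, so nothing was refitted.

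The 3 rows that name no gene (21.5% of CPM) were left out of counts. Calls are the deposited quasi-likelihood F test at an adjusted p below 0.05, adjusted over the whole table. The deposited log2 values were multiplied by -1 to make HBG2 positive. The standard error is the absolute log2 fold change over the square root of F, and intervals use t with 10.3 degrees of freedom, solved from F and p. They are approximate, since the authors' edgeR-type fit moderates fold changes. The arithmetic of the derivation was checked on simulated F statistics, which does not test that moderation. Group levels assume that the mean weights 3 and 2 libraries.

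All 6 members are named. In each list every called gene is named up to 5 in a direction, otherwise the 3 largest and 3 smallest changes, besides HMOX1, NFE2L2, GATA1 and KEAP1. Some listed genes are not reported here and were left out of the list counts. LIMS1 and MAFG-AS1 were chosen after their values were seen. Members and lists were chosen with earlier results of these data known. Python 3.11.15, scipy 1.17.1 and GENCODE 29 were used. Alternatives covered the adjustment, threshold, minimum fold, centring, low expression and sign.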

Additional observations from a re-analysis of the deposited data

How the results depend on the processing

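No paired analysis was possible because the table has no values per library, and for the same reason no other tool, filter on counts or left-out library could be run. Of 48 values for the 6 members under 8 alternatives, 35 kept direction and call. Some of these could not have changed. NFE2 and BACH1 were not called to begin with, so a stricter adjustment, threshold or minimum fold leaves them as they were. Adjusting over gene rows only leaves out just 3 rows. With the sign as deposited all 6 reverse: -0.61 for MAFF, -0.45 for MAFK, 0.01 for NFE2, 0.08 for BACH1, 0.20 for MAFG and 0.25 for NFE2L1. With Holm's adjustment the calls of MAFF (0.61), MAFK (0.45), MAFG (-0.20) and NFE2L1 (-0.25) are lost (adjusted p of 1 for each), leaving 0 higher and 0 lower. Below an adjusted p of 0.01, MAFK (0.45) is lost and 1 member is higher. With a minimum of 1.2-fold, MAFG (-0.20) and NFE2L1 (-0.25) are lost and 0 are lower. Among lists, the further CNC, BACH and MAF genes drop from 2 to 1 called below 0.01 through NFE2L3, and to 1, again through NFE2L3, when fold changes are centred on the better expressed genes (5 log2 CPM or more), and the other factors of the locus control region drop from 5 to 3 below 0.01. Centring moved the median by 0.03 at most, and on the better expressed genes it changed the calls over the table from 2987 higher and 3105 lower (49.0% higher) to 2566 and 3532 (42.1%). The scarcity of MAFF and MAFK limits what can be seen of them: the median standard error of genes at their level is 0.12.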

Other observations

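The measured genes on either side of the members, ordered by the RefSeq gene table (10386 of 11976 genes matched), were looked up after the members' values had been seen. Beside MAFG on chromosome 17 lie PYCR1, an enzyme of proline synthesis, and PCYT2, an enzyme of phospholipid synthesis. PYCR1 was lower at -0.67 (SE 0.05) and PCYT2 at -0.45 (SE 0.06), both by more than MAFG, while SIRT7 (-0.06) and MAFG-AS1 (-0.11) between them were not called per the authors' deposited table. Around NFE2L1 the genes differed in direction: CDK5RAP3 stood at -0.40, CBX1 at 0.20 and SNX11 at 0.43 per the authors' deposited table. The neighbours of NFE2 changed little, with CBX5 at 0.00, COPZ1 at 0.06 and HNRNPA1 at -0.13 (adjusted p = 0.0361) per the authors' deposited table. None of the 4 nearest measured neighbours of MAFF was called, and the largest value among them was 0.43 for BAIAP2L2 (adjusted p = 0.0561) per the authors' deposited table. Of the 4 around MAFK, INTS1 was higher at 0.22, MICALL2 (-0.21) and MAD1L1 (-0.26) were lower, and PSMG3 (-0.05) was not called per the authors' deposited table. Around BACH1, SOD1, superoxide dismutase (0.31), and SCAF4 (0.24) on its far side were higher per the authors' deposited table. On the near side CCT8 (0.09) and USP16 (0.03) were not called per the authors' deposited table.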
